A study of Mus musculus with 2 samples.

Results

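MHC class I presentation genes are described here in IL-10-producing CD4+ T cells from mouse spleen and small intestine. The 10 genes were taken as a named list: the heavy chains H2-K1 and H2-D1, the light chain B2m, the peptide transporter and loading genes Tap1, Tap2 and Tapbp, the immunoproteasome subunits Psmb8, Psmb9 and Psmb10, and the transactivator Nlrc5. All 10 of 10 were among the 28009 listed genes, and each had UMIs in both libraries. Their level and the share of cells with a UMI were compared between the tissues, and their relation to Ifng and to a state with many Ccl5 UMIs was examined within each tissue.

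MHC class I molecules show peptides of the cell's own proteins to CD8+ T cells and restrain NK cells. The proteasome cuts the proteins, the TAP transporter carries the peptides into the endoplasmic reticulum, tapasin helps to load them, and a heavy chain with beta-2-microglobulin takes them to the cell surface. Interferon gamma, which Ifng encodes and which activated T cells secrete, is known to raise most of these genes and to replace the standard catalytic subunits by those of the immunoproteasome. NLRC5 acts on class I promoters together with factors that bind their conserved boxes, of which one is known to hold a CRE-like site and another a reversed CCAAT box.

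Cells were sorted as eGFP+ CD4+ T cells, Foxp3+ cells included, from IL-10eGFP Foxp3mRFP double reporter mice aged 8 to 16 weeks. The mice had received 15 µg of anti-CD3 (clone 2C11), an antibody that activates T cells, by the intraperitoneal route on day 0 and again on day 2, and cells were taken 4 h later. Each tissue gave 1 library of the 10x Genomics Chromium platform, and how many mice were pooled is not given in the sources used here. Both groups carried the reporters and both had received anti-CD3, so that the tissue was the only labelled difference and no untreated cells were included.

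A UMI marks a captured transcript molecule. The intestinal library had 5693395 UMIs in 1474 barcodes and the splenic one 11103530 in 1738, with 0 barcodes shared. After filtering, 1278 intestinal cells with a median of 3696 UMIs and 1465 splenic cells with a median of 5397 UMIs remained. T cell markers were high in both, with Cd3d at 1560.0 CPM (UMIs per 1000000 UMIs of a library) in the intestinal cells and 1507 in the splenic cells, and Cd4 at 398.8 and 208. B cell, myeloid, epithelial and erythroid marker lists each summed to at most 14.1 CPM in the intestinal and 31.8 in the splenic cells. The listed MHC class II genes summed to 142.8 and 60.0 CPM, and Cd74, their invariant chain, had a UMI in 1.54% of intestinal cells at equal depth. Cd8a and Cd8b1 together reached 353 CPM in the small intestine, where 165 of 1171 cells at equal depth had a UMI of either, against 13.8 in the spleen, where Cd8a was at 0. Whether these cells also carried CD4 was not tested. Values without them are given for the tissue levels of the members and, for some members, for the intestinal cell states. With 1 library per tissue no test of the tissues or cells was possible. Brackets give 95% intervals, exact Poisson for levels, exact binomial for ratios and Clopper-Pearson for shares, and all cover counting error only. No cell type that lacks class I genes was identified, so the part of free RNA was not tested.

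In the reference (GRCm38), 7 of the 10 genes lie on chromosome 17 in the major histocompatibility complex. H2-K1 is at chr17:33996017-34000347 on the minus strand, H2-D1 at chr17:35262730-35267499 on the plus strand and Tapbp at chr17:33915899-33929292 on the plus strand. Psmb9 (chr17:34181987-34187764, minus strand), Tap1 (chr17:34187553-34197225), Psmb8 (chr17:34197721-34201454) and Tap2 (chr17:34203527-34216321, all plus strand) follow each other within 34335 bases that hold 4 protein-coding genes. B2m lies at chr2:122147686-122153083 on the plus strand. Nlrc5 (chr8:94434356-94527272, plus strand) and Psmb10 (chr8:105935735-105938444, minus strand) are on chromosome 8.

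Promoter sequences of RefSeq (GRCm38.p6, 250 bases before to 50 after a start site) matched 8 of the 10 genes, with Tap2 and Nlrc5 not in the table used. The 5 shown are those of the chains of the class I molecule (H2-K1, H2-D1 and B2m), of Tap1, whose window overlaps that of Psmb9 on the other strand, and of Psmb8, the member that differed most between the tissues. Capitals mark letters found by search on both strands. The core of a CRE was searched as TGACG. The CCAAT box was searched by its own letters. The ISRE core, a motif of interferon-responsive promoters, was GAAA repeated after any 2 bases. The GAS element, another motif of interferon-responsive promoters, was TTC and GAA with any 3 bases between them.
H2-K1, chr17:34000284-34000583, minus strand: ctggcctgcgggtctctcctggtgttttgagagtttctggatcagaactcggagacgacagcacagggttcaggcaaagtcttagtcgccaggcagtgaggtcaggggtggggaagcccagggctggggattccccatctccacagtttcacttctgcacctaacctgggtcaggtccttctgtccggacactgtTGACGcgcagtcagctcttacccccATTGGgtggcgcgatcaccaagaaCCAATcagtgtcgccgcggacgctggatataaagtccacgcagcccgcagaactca
H2-D1, chr17:35262844-35263143, plus strand: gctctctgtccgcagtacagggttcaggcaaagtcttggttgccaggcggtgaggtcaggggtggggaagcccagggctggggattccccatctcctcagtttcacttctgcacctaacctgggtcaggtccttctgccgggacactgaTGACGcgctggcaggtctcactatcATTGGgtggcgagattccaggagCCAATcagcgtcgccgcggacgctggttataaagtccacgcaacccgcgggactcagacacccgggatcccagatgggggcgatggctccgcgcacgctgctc
B2m, chr2:122147437-122147736, plus strand: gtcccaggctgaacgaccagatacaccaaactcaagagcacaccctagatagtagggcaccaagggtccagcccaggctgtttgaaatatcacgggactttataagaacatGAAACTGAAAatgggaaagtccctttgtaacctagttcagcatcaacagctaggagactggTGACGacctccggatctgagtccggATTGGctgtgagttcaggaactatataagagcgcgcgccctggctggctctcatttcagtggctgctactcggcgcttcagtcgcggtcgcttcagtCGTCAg
Tap1, chr17:34187306-34187605, plus strand: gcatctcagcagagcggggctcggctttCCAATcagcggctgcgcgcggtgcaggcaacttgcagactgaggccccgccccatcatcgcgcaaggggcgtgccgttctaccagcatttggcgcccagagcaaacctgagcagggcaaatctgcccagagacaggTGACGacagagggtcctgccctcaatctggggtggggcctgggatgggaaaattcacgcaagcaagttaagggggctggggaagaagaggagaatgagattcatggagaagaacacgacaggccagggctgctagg
Psmb8, chr17:34197945-34198244, plus strand: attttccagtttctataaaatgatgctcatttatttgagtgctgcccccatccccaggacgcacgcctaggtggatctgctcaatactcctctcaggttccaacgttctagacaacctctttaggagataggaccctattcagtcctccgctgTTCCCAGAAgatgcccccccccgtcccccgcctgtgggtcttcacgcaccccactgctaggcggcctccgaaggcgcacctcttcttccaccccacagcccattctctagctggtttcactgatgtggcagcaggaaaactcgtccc

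The promoters of H2-K1 and H2-D1 were identical at 222 of 253 aligned bases (87.75%). In these and in that of B2m, TGACG was followed after 20 bases by a CCAAT box on the other strand, a spacing searched after the sequences had been seen. That spaced pair was in 31 of 32851 promoters (0.0944%), those of 27 of 27025 genes, and 3 of these genes were members. TGACG began at position -55 from the start in H2-K1, -101 in H2-D1 and -78 in B2m. H2-K1 has a second listed start, for which the same letters begin at -41. Without a fixed spacing, 5 members had both motifs, as 7.726% of all promoters did, the other 2 being Tap1 and Psmb9, whose windows lie head to head and share 275 bases. An exact match of the ISRE core was found in 1 member, B2m, at -139 (3.443% of all promoters). An exact match of the GAS element was found in 1, Psmb8, at -97 (8.298%). The search misses variants of either motif. The promoters of H2-K1 and H2-D1 both hold the unmarked letters tttcacttct, which are close to the ISRE core on the other strand. The search therefore does not show that these promoters lack the element. The windows of H2-D1 and Psmb8 lie wholly within the genes as placed above. Their positions are counted from a RefSeq start inside the gene. The motif matches describe letters in a window of 300 bases and say nothing about binding in these cells.

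The classical class I heavy chains and their light chain differed little between the tissues. H2-K1 was at 1812 CPM (1775 to 1849) in intestinal cells against 1770 (1743 to 1797) in splenic cells, a log2 ratio of small intestine over spleen of 0.03 (-0.0032 to 0.07). H2-D1 was at 3536 (3484 to 3588) and 3483 (3445 to 3521), a log2 ratio of 0.02 (-0.0047 to 0.05). For both heavy chains the intervals of the libraries overlapped. Without cells with a CD8 UMI their log2 ratios were 0.074 and 0.056, above the upper bounds of those intervals of the ratio. B2m, the light chain that every class I molecule needs, was at 5012 CPM (4951 to 5075) and 5236 (5189 to 5283), lower in the small intestine by a log2 ratio of -0.06 (-0.09 to -0.04). Without CD8 cells it was at -0.041. The interval did not include 0, but it covers counting error of single libraries and not differences between mice. Ccl5, Ccl4, Nkg7 and Plac8 together took up 55151 CPM in intestinal and 5104 in splenic cells, which lowers the CPM of the other intestinal genes. Set against the median of all genes, the log2 ratios were 0.055 for H2-K1, 0.043 for H2-D1 and -0.042 for B2m. The part of this shift in the B2m ratio was not tested.

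Nearly every cell had UMIs of H2-K1, H2-D1 and B2m. With each cell thinned at random to 2000 UMIs, 1171 intestinal and 1442 splenic cells were left, and 107 and 23 were too shallow. At that depth 95.5% of intestinal and 95.7% of splenic cells had a UMI of H2-K1, 99.9% and 99.3% of H2-D1, and 99.9% and 100% of B2m. The median cell had 3 UMIs of H2-K1 in the intestinal library and 4 in the splenic one, 7 of H2-D1 in both, and 10 of B2m in both. From the 10th to the 90th percentile of cells, B2m ran from 5 to 16 UMIs in intestinal cells and from 5 to 17 in splenic cells. The variance of the UMIs per cell was 1.82 and 2.06 times the mean for B2m, 1.84 and 1.81 times for H2-D1, and 1.49 and 1.51 times for H2-K1, where counting alone gives about 1. Cells thus varied in these genes by more than counting error. For the other 7 members the ratio lay between 0.907 and 1.12. For a given relative spread this ratio rises with the mean count, which was 0.0388 to 1.29 UMIs a cell for those 7. It therefore does not show that they varied less. None of the 10 was among the highly variable genes of either tissue (0 of 69 intestinal and 0 of 127 splenic).

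Peptide transport and loading genes differed little between the tissues as well. Tap1, one chain of the peptide transporter, was at 136 CPM (126 to 146) in intestinal and 152 (144 to 160) in splenic cells, with 21.9% (19.6 to 24.4) and 25.7% (23.4 to 28.0) of cells with a UMI at equal depth. Tap2, the other chain, was higher in the small intestine, at 157 CPM (147 to 169) against 137 (130 to 145), with 26.7% and 23.4% of cells. The chains of the heterodimer thus differed in opposite directions, with log2 ratios of -0.16 (-0.29 to -0.03) for Tap1 and 0.20 (0.07 to 0.33) for Tap2, and -0.17 and 0.17 without CD8 cells. Over 11 settings Tap1 ran from -0.29 to -0.063 and Tap2 from 0.17 to 0.23. The value of Tap1 nearest to 0 was that without cells with a Foxp3 UMI. Tapbp, which encodes tapasin, was at 217 CPM (204 to 230) and 213 (203 to 222), with 35.7% and 35.0% of cells and a log2 ratio of 0.031 without CD8 cells. In its last 500 transcript bases, 4.83% of the 50-base windows also belong to its neighbour Zbtb22, so that a part of its UMIs could be of that gene.

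Among the immunoproteasome subunits, Psmb8 and Psmb9 were lower in the small intestine. Psmb8, which encodes LMP7, was at 439 CPM (421 to 457) in the small intestine against 686 (669 to 703) in the spleen, 1.56-fold higher in the latter, with a log2 ratio of -0.65 (-0.72 to -0.57). At equal depth 56.7% (53.8 to 59.6) of intestinal and 70.7% (68.3 to 73.1) of splenic cells had a UMI of it, and the intervals were apart. Before thinning, when splenic cells were deeper, 75.5% and 94.1% had one. Over 11 settings the log2 ratio of the level of Psmb8 ran from -0.73 to -0.58, the former without CD8 cells. Psmb9, which encodes LMP2, was at 186 CPM (175 to 199) and 233 (224 to 243), a log2 ratio of -0.32 (-0.44 to -0.21). Over 11 settings this ratio ran from -0.39 to -0.20. At equal depth 33.4% (30.7 to 36.2) and 34.7% (32.2 to 37.2) of cells had a UMI of it, with intervals that overlapped, and means of 0.383 and 0.440 UMIs a cell. Psmb10, which encodes MECL-1, was at 171 CPM (160.0 to 183) and 180 (171 to 189), a log2 ratio of -0.07 (-0.19 to 0.05), with 27.7% and 30.2% of cells. Before thinning the shares of Tap1, Tap2, Tapbp, Psmb9 and Psmb10 were 39.1% to 51.5% among intestinal and 51.9% to 68.1% among splenic cells, against 21.9% to 35.7% and 23.4% to 35.0% at equal depth. The 3 inducible subunits, which are built into one particle, thus differed by unequal amounts, and for Psmb10 the interval included 0. Without CD8 cells Psmb9 was at a log2 ratio of -0.39 and Psmb10 at -0.18.

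Nlrc5 was barely captured. It had 89 UMIs in intestinal cells, or 17.7 CPM (14.2 to 21.8), and 143 in splenic cells, or 15.7 CPM (13.2 to 18.4), with a UMI in 4.18% and 3.88% of cells at equal depth. Its log2 ratio of 0.17 (-0.22 to 0.57) left a difference of either direction possible at this depth, and without CD8 cells it was -0.029.

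**Figure D1:**
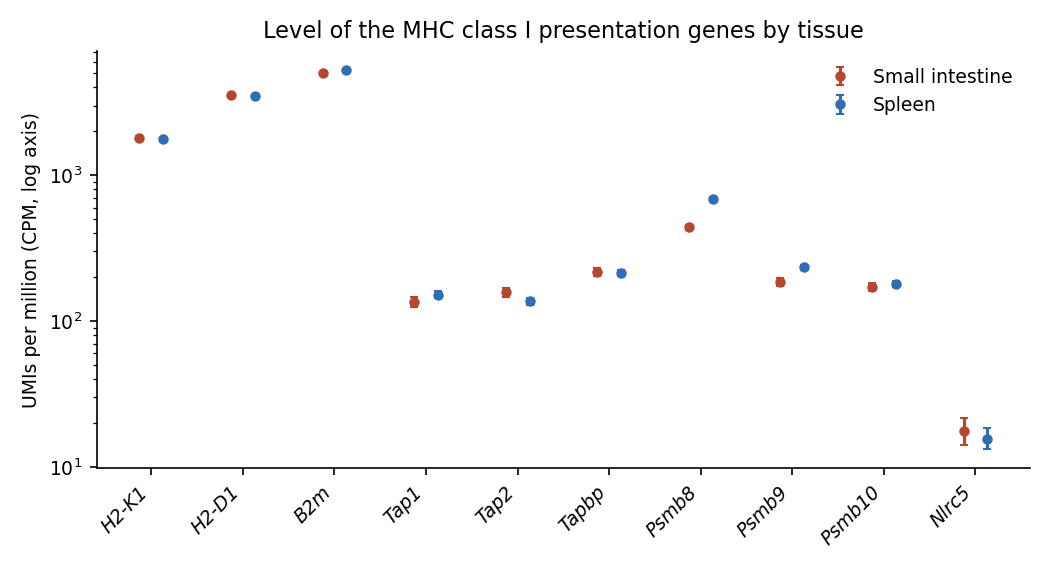
Level of each gene in CPM (log axis) in the small intestine (red) and the spleen (blue), 1 library each, with exact Poisson 95% intervals. Points of both tissues nearly coincide except for Psmb8, at 439 CPM in intestinal and 686 in splenic cells, and to a lesser degree Psmb9.

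Of the 10 genes, 0 were higher and 1, Psmb8, was lower in the small intestine by more than 1.5-fold. Of all 9031 genes with at least 50 UMIs, 21.4% were higher and 24.1% lower by as much. The median log2 ratio of the 10 was -0.021, and that of all genes was -0.021 as well. Of the 9 members with at least 1000 UMIs, 0 and 1 passed the fold, against 13.3% and 25.9% of the 2031 genes with that many UMIs. With cells thinned to 2000 UMIs the log2 ratio of Psmb8 was -0.58, just short of the fold, and 0 members passed it.

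Psmb8 and Psmb9 can be set beside the rest of the proteasome. The 3 standard catalytic subunits that the inducible ones replace were all lower in the small intestine beyond their intervals: Psmb5 at 142 against 253 CPM (log2 ratio -0.84, -0.96 to -0.72), Psmb6 at 181 against 230 (-0.34) and Psmb7 at 125 against 183 (-0.55). All 11 further subunits of the 20S core were lower too, 4 of them past 1.5-fold, with a median log2 ratio of -0.53. Of all 9031 genes 35.0% were lower beyond their interval, and of the 2031 with at least 1000 UMIs 54.9%, with a median log2 ratio of -0.20. Psme2, a subunit of a proteasome activator, was at 344 CPM in intestinal against 582 in splenic cells, a log2 ratio of -0.76 (-0.84 to -0.68), and Psme1, its partner, at 348 and 429. The lower Psmb8 and Psmb9 thus came with lower values of the standard particle and its activator, while the interval of Psmb10 included 0. All 6 listed cell cycle genes and all 5 listed growth genes were lower in the small intestine past 1.5-fold as well, and their part in this result was not tested.

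The other class I heavy chains were more often higher than lower in the small intestine. Of 11 tested, 7 were higher and 2 lower beyond their intervals, 2 and 1 of them past 1.5-fold, with a median log2 ratio of 0.27. Of all 9031 genes 31.7% were higher and 35.0% lower beyond their intervals, and 21.4% and 24.1% past the fold. H2-T23, which encodes Qa-1, a ligand of NKG2A receptors, was at 523 CPM in intestinal and 204 in splenic cells (log2 ratio 1.35, 1.27 to 1.44). H2-Q7 (Qa-2) was at 394 and 445 CPM (-0.18), H2-T22 at 249 and 220 (0.18) and H2-Q4 at 215 and 161 (0.42). In the last 500 bases of their transcripts, 38.1% (H2-T23), 58.9% (H2-T22) and 33.7% (H2-Q4) of the 50-base windows occur in another gene, so their counts are uncertain, against 9.6% for H2-K1 and 8.92% for H2-D1. Of 8 loading and trimming genes, 0 were higher and 2 lower past the fold, the chaperones Calr (186 against 312 CPM) and Canx (74.7 against 120). Hspa5, another chaperone of the endoplasmic reticulum, was higher in the small intestine, at 550 against 445 CPM (log2 ratio 0.31, 0.24 to 0.38).

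Genes of the interferon gamma pathway differed in both directions. Ifng itself was at 354 CPM in intestinal and 60.3 in splenic cells. A UMI of it was in 36.8% (34.0 to 39.6) and 9.43% (7.97 to 11.1) of cells at equal depth, and in 52.4% and 15.7% before thinning. Ifngr1, a receptor chain, was at 1107 and 413 CPM (log2 ratio 1.42). Of 4 tested genes of the receptor and its signalling, 2 were higher and 1 lower past 1.5-fold. Of 13 genes that respond to interferon gamma, 2 were higher and 5 lower in the small intestine past 1.5-fold, with Irf8 at 75.7 against 687 CPM and Igtp at 66.3 against 131. Irf1, an activator of class I and immunoproteasome promoters, was at 138 against 74.0 CPM (log2 ratio 0.89). It is 1 of 11 listed class I regulators, of which 2 were higher and 0 lower past the fold, with a median log2 ratio of -0.20. Of 12 genes that respond to type I interferon, 5 were higher and 3 lower. Of all 9031 genes 21.4% were higher and 24.1% lower by as much. Ifng, Ifngr1 and Irf1 were higher in the small intestine, where Psmb8 and Psmb9 were lower and the levels of H2-K1 and H2-D1 overlapped those of the spleen. A relation between these values was not tested.

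Whether cells with Ifng transcripts differ in these genes was examined within each tissue, in cells thinned to 2000 UMIs so that deeper cells did not fall into the group more often. Thinning also put some cells with Ifng transcripts into the group without. An Ifng UMI was in 52.4% of intestinal and 15.7% of splenic cells before thinning, against 36.8% and 9.43% after it. The ratios can be smaller for this reason. In the small intestine 431 cells had an Ifng UMI and 740 had none. H2-K1 was at 1850 CPM in cells with Ifng and 1927 in cells without (log2 ratio -0.06, -0.15 to 0.03), H2-D1 at 3767 and 3606 (0.06, -0.00046 to 0.13) and B2m at 5161 and 5047 (0.03, -0.02 to 0.09). None of the 3 intervals lay apart from 0. Psmb8 was at 449 and 424 CPM, Psmb9 at 172 and 203, Psmb10 at 167 and 167, Tap2 at 162 and 145 and Tapbp at 239 and 220, all with intervals of the ratio that included 0. Tap1 stood apart, at 152 CPM in cells with Ifng and 109 in cells without, a log2 ratio of 0.48 (0.14 to 0.82) from 131 and 161 UMIs. Under 5 other draws of the thinned cells its ratio ran from 0.25 to 0.56, without thinning it was 0.24, and with cells thinned to 3000 UMIs it was 0.18, the lowest of 18 settings.

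Of the 10 members, 1 was higher and 0 were lower by a log2 ratio of more than 0.32 in intestinal cells with Ifng, against 11.5% and 12.7% of 4844 genes. The median log2 ratio of the members was 0.07 and that of all genes -7.7e-05. Irf1 was at 182 and 113 CPM (log2 ratio 0.69, 0.37 to 1.01). Of 10 tested genes of the interferon gamma response, 2 were higher and 1 lower past the fold. Cells with a Cd8a or Cd8b1 UMI made up 9.98% of the cells with Ifng and 16.5% of those without. Without them the log2 ratio was 0.45 for Tap1, 0.013 for H2-D1, -0.015 for B2m and -0.073 for H2-K1.

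In the spleen 136 cells had an Ifng UMI and 1306 had none. H2-D1 was at 4107 CPM in cells with Ifng and 3680 in cells without, a log2 ratio of 0.16 (0.07 to 0.25), and B2m at 5853 and 5395, a log2 ratio of 0.12 (0.04 to 0.19). H2-K1 was at 2066 and 1921 CPM (0.11, -0.02 to 0.23). In this draw of the thinned cells, H2-D1 and the light chain were thus higher in splenic cells with Ifng beyond counting error. Under 5 other draws the log2 ratio ran from 0.13 to 0.27 for H2-D1 and from 0.034 to 0.13 for B2m. Without thinning it was 0.12 for H2-D1 and 0.043 for B2m. All these ratios were below the log2 ratio of 0.32 used for counting. Of the 390 genes with at least 1000 UMIs, 21.8% were higher and 30.8% lower beyond their intervals. Of the 4 members among them, 2 were higher and 0 lower. Psmb9 was at 261 and 216 CPM (0.28, -0.10 to 0.63), Psmb10 at 217 and 179 (0.28, -0.14 to 0.67), Psmb8 at 625 and 649 (-0.06, -0.29 to 0.17) and Tap1 at 132 and 155 (-0.23, -0.76 to 0.27). Tap2, at 147 and 134 CPM, and Tapbp, at 246 and 227, also had intervals of the ratio that included 0. Nlrc5 had 2 UMIs in cells with Ifng and 54 in the others, a log2 ratio of -1.49 (-4.57 to 0.43).

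By count, 0 members were higher and 1, Nlrc5 on those 2 UMIs, was lower past that ratio, against 23.7% and 24.7% of 5387 genes. The median log2 ratio of the members was 0.12 and that of all genes 0.02. Over 18 settings H2-D1 ranged from 0.014 to 0.27 and B2m from 0.0051 to 0.13, all above 0. H2-K1 ranged from -0.12 to 0.18. Of 12 tested genes of the interferon gamma response, 0 were higher and 7 lower past the ratio in splenic cells with Ifng, with a median of -0.39. Foxp3 UMIs were in 2.21% of cells with Ifng and 9.49% of those without. Without cells with a Foxp3 UMI the log2 ratio was 0.15 for H2-D1 and 0.12 for B2m. Cells with Ifng had a median of 5279 UMIs before thinning against 5492. The ratios above were read at 2000 UMIs a cell, and at 1000 UMIs they were 0.014 for H2-D1 and 0.0051 for B2m, at 3000 UMIs 0.19 and 0.07.

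The relation to Ifng was also read within the Ccl5 classes defined below. In Ccl5-high intestinal cells, 408 with and 613 without Ifng, H2-D1 (0.09, 0.02 to 0.16), B2m (0.08, 0.02 to 0.13) and Tap1 (0.53, 0.16 to 0.90) were higher in cells with Ifng on the log2 scale. CD8 UMIs were in 10.5% of the former and 19.4% of the latter cells, and their part in these ratios was not tested. In intestinal cells that were not Ccl5-high, 23 with and 127 without Ifng, 6 members were tested. Of these, 0 were higher and 3 lower past the fold in cells with Ifng, and 0 differed beyond their intervals. Of all 898 genes tested there, 194 were higher and 184 lower past the fold, and 4.79% in each direction beyond their intervals. The median log2 ratio of the 6 members was -0.29, against 0.0013 for all genes. In splenic cells that were not Ccl5-high, 88 with and 1174 without Ifng, H2-D1 (0.25, 0.14 to 0.36) and B2m (0.15, 0.06 to 0.24) were higher. In the 48 and 132 Ccl5-high splenic cells H2-D1 was lower in those with Ifng, at 3750 against 4314 CPM (-0.20, -0.38 to -0.03), the opposite direction. These 48 cells had a median of 5757 UMIs before thinning against 4517 in the 132. Of all genes with at least 50 UMIs, 4.60% were higher beyond their interval in the Ccl5-high intestinal cells and 6.17% in the splenic cells that were not Ccl5-high. In the Ccl5-high splenic cells 5.16% were lower. Genes with many UMIs have narrower intervals. With at least 1000 UMIs and all cells of a tissue, 17.1% of intestinal and 21.8% of splenic genes were higher, and 30.8% of splenic genes lower. Shares of such genes within the Ccl5 classes were not computed. The difference between these strata was not tested.

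Cells with at least 5 Ccl5 UMIs among 2000 were called Ccl5-high. Ccl5 is a chemokine of effector and memory T cells. The class is a range and not a cell type: it held 1021 of 1171 intestinal cells (87.2%) and 180 of 1442 splenic cells (12.5%), and 13 and 29 cells with 5 to 7 UMIs and 40 and 33 with 3 to 4 lay near its limit. Ifng UMIs were in 40.0% (36.9 to 43.0) of Ccl5-high and 15.3% (9.98 to 22.1) of the other intestinal cells, and in 26.7% (20.4 to 33.8) and 6.97% (5.63 to 8.52) of the splenic ones.

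In the spleen, class I heavy and light chains were higher in Ccl5-high cells. H2-K1 was at 2264 CPM (2111 to 2425) in Ccl5-high and 1888 (1835 to 1942) in the other splenic cells, a log2 ratio of 0.26 (0.15 to 0.37). H2-D1 was at 4164 and 3657 CPM (0.19, 0.11 to 0.27) and B2m at 6078 and 5347 (0.18, 0.12 to 0.25). The 3 ratios were above 0 under each of 19 settings, from 0.17 to 0.32 for H2-K1, 0.16 to 0.24 for H2-D1 and 0.17 to 0.27 for B2m. They were no smaller among splenic cells without an Ifng UMI (132 Ccl5-high and 1174 others), at 0.30, 0.26 and 0.22. Psmb10 was at 225 and 177 CPM (0.35, -0.01 to 0.69), Psmb8 at 678 and 643 (0.08), Psmb9 at 219 and 220 (-0.0029), Tap1 at 150 and 153 (-0.03), Tap2 at 158 and 132 (0.27) and Tapbp at 208 and 231 (-0.15), with intervals that included 0.

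Of the members, 1 (Psmb10) was higher and 0 were lower past a log2 ratio of 0.32 in Ccl5-high splenic cells, against 20% and 27.1% of 5387 genes. The median log2 ratio was 0.13 for the members and -0.04 for all genes. Among 389 genes with at least 1000 UMIs, 17.2% were higher beyond their interval, and of the 4 such members these 3 were. H2-T23 and H2-Q7 were higher as well, at 294 and 204 CPM (0.53, 0.21 to 0.83) and at 622 and 458 (0.44, 0.23 to 0.65), as were Psme2 at 769 and 536 (0.52, 0.33 to 0.71) and Ifngr1 at 600.0 and 402 (0.58, 0.36 to 0.79). Their lists were mixed. Of 8 other heavy chains tested, 3 were higher and 0 lower beyond their intervals. Of 7 proteasome activator and assembly genes 1 was higher and 2 lower, and of 4 receptor and signalling genes 1 and 1. Of 8 loading and trimming genes 0 were higher and 3 lower, and of 12 interferon gamma response genes 1 and 3. Of all 5387 genes 7.46% were higher and 8.61% lower beyond their intervals. Ccl5-high splenic cells had a median of 4922 UMIs before thinning against 5510 in the others, and a Foxp3 UMI in 3.89% against 9.51%. Without cells with a Foxp3 UMI the log2 ratios were 0.26 for H2-K1, 0.21 for H2-D1 and 0.20 for B2m, and with cells thinned to 1000 UMIs they were 0.31, 0.18 and 0.17. The Ccl5-high cells also differed from the rest in other lists: 5 of 5 tested naive and central memory genes were lower, with a median log2 ratio of -1.98, as were 4 of 5 growth genes past a log2 ratio of 0.32. The part of these in the result was not tested.

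In the small intestine H2-D1 and B2m were lower in Ccl5-high cells. H2-D1 was at 3606 CPM in Ccl5-high and 4070 in the other cells (-0.17, -0.26 to -0.09) and B2m at 5005 and 5663 (-0.18, -0.25 to -0.10), while H2-K1 was at 1911 and 1817 (0.07, -0.06 to 0.20). The median of all genes stood at -0.12 here, where Ccl5 alone reached 48827 CPM over all intestinal cells. Relative to that median H2-D1 was at -0.05, B2m at -0.06 and H2-K1 at 0.20, so that the lower values of H2-D1 and B2m were close to the shift of the whole transcriptome. Of 327 genes with at least 1000 UMIs, 44.3% were lower beyond their interval, as were 2 of the 4 such members. Psmb10 was at 173 and 127 CPM (0.45, -0.04 to 0.97), Psmb8 at 428 and 470.0 (-0.14), Psmb9 at 193 and 183 (0.07), Tap1 at 124 and 130.0 (-0.07), Tap2 at 151 and 153 (-0.02) and Tapbp at 227 and 227 (0.00046), all with intervals that included 0.

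Here too 1 member (Psmb10) was higher and 0 were lower past a log2 ratio of 0.32, against 20% and 33.5% of 4844 genes, and the members' median was -0.01. Only 150 intestinal cells were not Ccl5-high. CD8 UMIs were in 15.9% (13.7 to 18.3) of Ccl5-high and 2.0% (0.41 to 5.73) of the other cells, and Foxp3 UMIs in 0.39% and 6.67%. Without cells with a CD8 UMI the log2 ratios were -0.14 for H2-D1 and -0.13 for B2m. Over 19 settings they ran from -0.22 to -0.05 for H2-D1 and from -0.33 to -0.05 for B2m. The other cells had more Cd74 (563 against 15.2 CPM), 3 of 3 tested Th17 genes were higher in them, and their median mitochondrial share was 2.45% against 1.78%. The part of these was not tested.

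**Figure D2:**
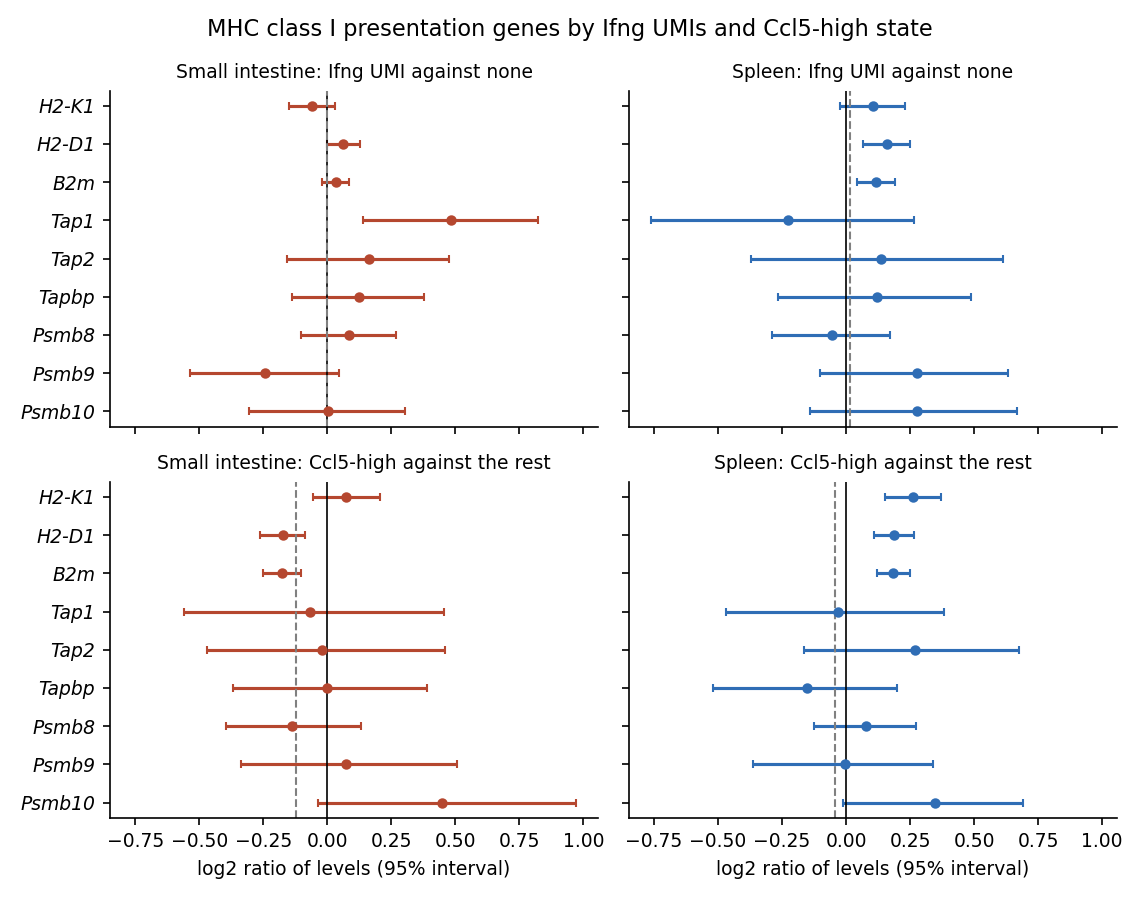
Log2 ratio of levels of 9 members with exact binomial 95% intervals, for cells with an Ifng UMI against none (top) and Ccl5-high cells against the rest (bottom), in the small intestine (red) and the spleen (blue). The dashed line is the median of all genes tested, and Nlrc5 is not drawn for its few UMIs. In the spleen H2-K1, H2-D1 and B2m lie right of 0 for the Ccl5-high state, while intestinal H2-D1 and B2m lie left of 0 near the dashed line.

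Along the number of Ifng UMIs the 3 abundant genes were nearly flat in the small intestine. H2-K1 was at 1927 CPM in the 740 cells without an Ifng UMI after thinning, 1796 in the 240 with 1 UMI, 1928 in the 97 with 2 and 1910 in the 94 with 3 or more. H2-D1 was at 3606, 3708, 3845 and 3835 CPM and B2m at 5047, 5133, 5294 and 5096 in the same classes, with intervals that overlapped between neighbours. In the spleen the 9 cells with 3 or more Ifng UMIs had 6389 CPM of B2m (5275 to 7669) against 5395 (5306 to 5485) in the 1306 without, too few cells to order the upper classes.

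Along the number of Ccl5 UMIs, B2m had a rising order in the spleen. It was at 5270 CPM (5171 to 5369) in the 1037 splenic cells without Ccl5, 5702 (5484 to 5927) in the 225 with 1 to 4 UMIs, 6023 (5606 to 6464) in the 64 with 5 to 19, 6039 (5659 to 6437) in the 78 with 20 to 99 and 6250 (5701 to 6838) in the 38 with 100 or more. The first 2 classes did not overlap and the last 3 did. H2-D1 was at 3602, 3911, 4258, 3962 and 4421 CPM, and H2-K1 at 1866, 1987, 2469, 1949 and 2566. In the small intestine the 577 cells with 100 or more Ccl5 UMIs had 4865 CPM of B2m (4738 to 4994) and the 386 with 20 to 99 had 5176 (5017 to 5339), while the 127 cells with 1 to 4 UMIs had the highest level, 5941 (5645 to 6248). The 23 intestinal cells without Ccl5 had 4130 (3564 to 4761), so the intestinal values had no single direction.

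**Figure D3:**
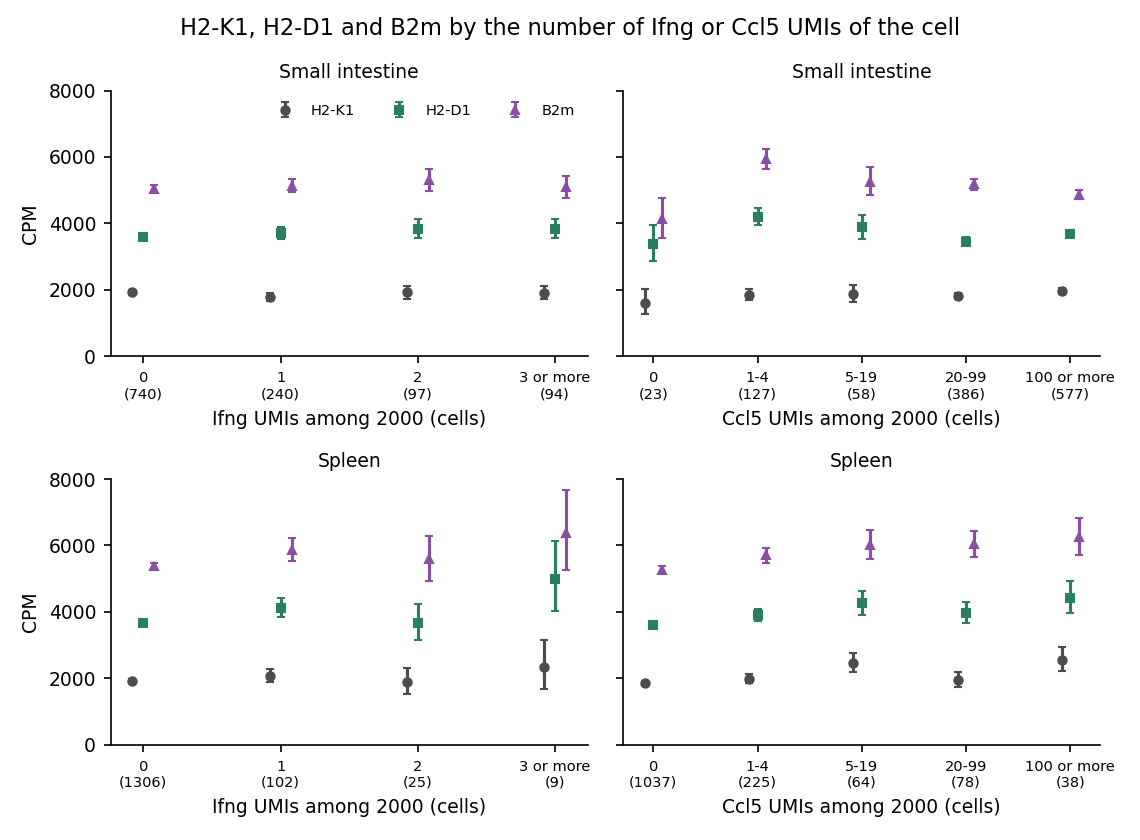
CPM of H2-K1 (circles), H2-D1 (squares) and B2m (triangles) with exact Poisson 95% intervals, in cells grouped by their Ifng UMIs (left) or Ccl5 UMIs (right) among 2000 UMIs, with the number of cells in brackets. B2m climbs from 5270 to 6250 CPM with Ccl5 in the spleen and peaks at 5941 in intestinal cells with 1 to 4 Ccl5 UMIs.

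Levels were then read in graph clusters, 6 of intestinal and 7 of splenic cells, which were formed without the members and are called here by number and leading genes. Summed over the 10 genes, the level ran from 10123 to 12949 CPM among the intestinal clusters (1.28-fold) and from 8836 to 13484 among the splenic ones (1.53-fold). The sum was mostly that of the 3 abundant genes. Of 58830 intestinal UMIs of the members, 25238 were of B2m, 17804 of H2-D1 and 9123 of H2-K1. Of 110541 splenic ones these were 47817, 31805 and 16161. In the spleen, cluster 7 (Cnn3, Itm2a, Bach2, 133 cells) was lowest at 8836 CPM (8648 to 9028). Cluster 3 (Pik3ip1, Ccr7, Txnip) was next at 10326, followed by cluster 4 (Hist1h2ap, Rrm2) at 11485. The leading genes of cluster 4 include histone and replication genes and also the mitosis genes Birc5 and Cdca8, so cycling cells remained after the G2/M filter. Clusters 5 (Lgals3, Cxcr6), 1 (Tnfsf8, Tbc1d4), 2 (Tnfrsf9, Foxp3) and 6 (Ccl5, Ccl4) lay at 13102, 13177, 13327 and 13484 CPM, and the intervals of neighbours among these 4 overlapped. Cluster 6, which leads with Ccl5, thus lay close to 3 clusters that do not, and the rest of the spleen held the lower clusters 3, 4 and 7. CPM are shares of a cluster's UMIs, and cells differed in depth. The median was 9680 UMIs in splenic cluster 4, 7059 in 7, 4192.5 in 1 and 3916.5 in 3, and 2996 to 4220 among intestinal clusters. Per cell the order was another: splenic cluster 7 had 8331 UMIs of the 10 genes in 133 cells, and cluster 3 had fewer per cell, 9363 in 212.

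In CPM, splenic cluster 7 was low in most members. H2-D1 was at 2279 CPM there against 3093 to 3924 in the other splenic clusters, B2m at 3783 against 4239 to 5932, Tap1 at 80.6 against 140 to 186 and Tapbp at 123 against 152 to 260. Psmb9 was at 135 CPM against 180 to 293. Psmb8 (628 against 613 to 724) and Psmb10 (174 against 121 to 246) were not the lowest in it. In this cluster 0.763% of cells at equal depth had an Ifng UMI and 0 of 131 were Ccl5-high, with a Clopper-Pearson upper bound of 2.78%.

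H2-K1 had an order of its own in the spleen. It was highest in cluster 1, whose leading genes include Cxcr5 and Il21, at 2214 CPM (2137 to 2294), followed by cluster 6 at 2005 (1912 to 2100) and cluster 2 at 1920 (1856 to 1986), whose intervals overlapped. It was lowest in cluster 4 at 1474 (1423 to 1527), as a share of that cluster's UMIs. Cluster 4 had 3103 UMIs of H2-K1 in 209 cells and cluster 1 had 3081 in 310, so that cluster 4 had more per cell. Cluster 4 had in turn the highest Tap1 (186 CPM, 168 to 206), Psmb8 (724, 688 to 761) and Psmb9 (293, 270 to 317) of the spleen. For Tap1 this interval overlapped those of clusters 2 (142 to 180), 5 (127 to 173) and 6 (127 to 180). For Psmb8 it overlapped those of clusters 1 (620 to 706), 2 (665 to 744), 5 (672 to 771) and 6 (639 to 750). For Psmb9 it overlapped those of clusters 5 (241 to 301) and 6 (222 to 290). A Foxp3 UMI was in 14.9% of cells of cluster 4 and 28.7% of those of cluster 2.

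In CPM, the intestinal class I chains were lowest in the cluster where the immunoproteasome was highest. Cluster 6 (Cd8b1, Cd8a, 133 cells, Cd8a or Cd8b1 UMIs in 90.6% of cells) had the lowest H2-K1 (1385 CPM, 1297 to 1477), H2-D1 (2810, 2684 to 2940) and B2m (4268, 4113 to 4428) and the highest Psmb8 (582, 526 to 643), Psmb9 (247, 211 to 288) and Psmb10 (258, 220 to 299). Its cells were the deepest, with a median of 4220 UMIs against 2996 in cluster 2. It had 925 UMIs of H2-K1, 1877 of H2-D1 and 2851 of B2m in 133 cells. Cluster 2, the shallowest, had 1515, 3059 and 4013 in 253 cells, so that cluster 6 had more of each per cell. Cluster 1, with a median of 4109 UMIs, had 2609, 4830 and 7197 in 328 cells, so that cluster 6 had fewer of each per cell. Against the remaining clusters the direction differed between the genes. At equal depth, intestinal cells with a CD8 UMI had less of all 3 genes, as given under other observations. Cluster 4 (Csf1, Ahnak, Lag3, Ifng) had the highest H2-K1 (2192, 2082 to 2305) and H2-D1 (4093, 3943 to 4247). Cluster 3 (Sv2c, Ttc39c) had the lowest Psmb8 (329, 289 to 374) and Psmb10 (106, 83.6 to 132), so that Psmb10 spanned 2.43-fold and Psmb8 1.77-fold among intestinal clusters. Psmb8 spanned 1.18-fold among splenic ones. In cluster 2 (Cd7, Actn2) Psmb8 (530 CPM) and Psmb10 (254) were high as well, with intervals that overlapped those of cluster 6, next to a middle level of H2-K1 (1797) and H2-D1 (3629).

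**Figure D4:**
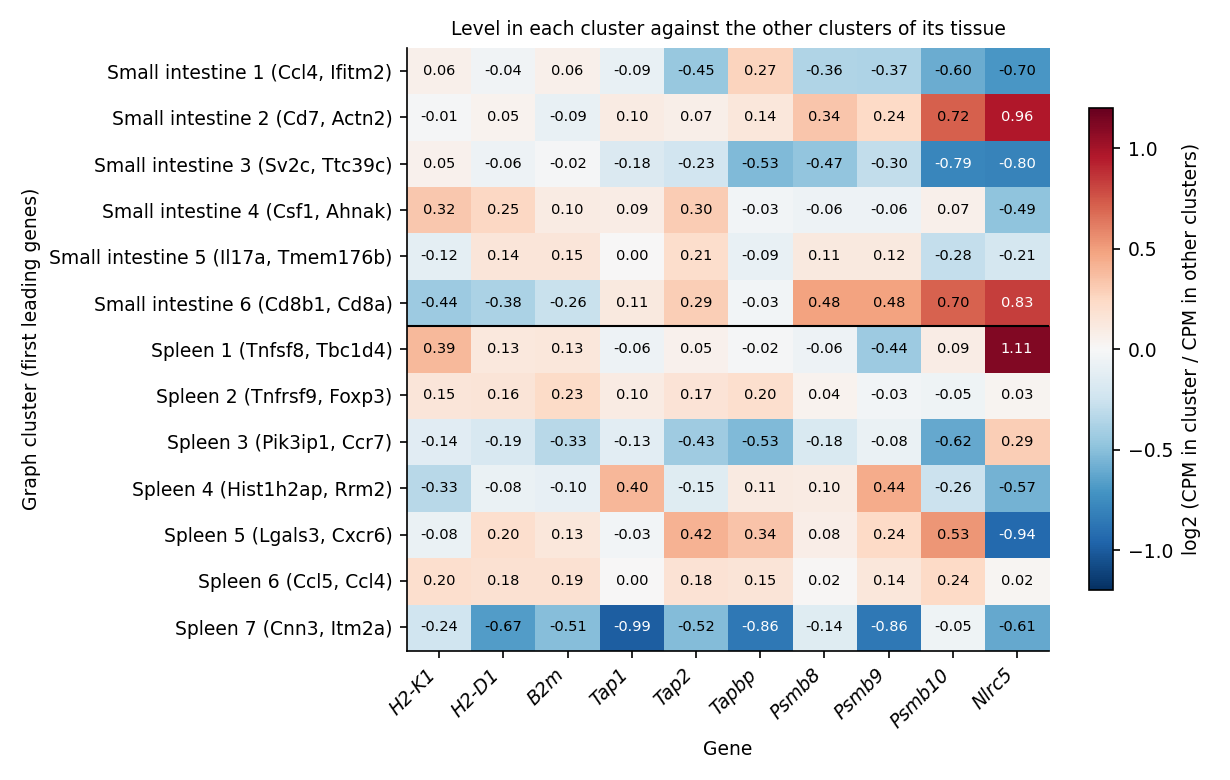
Log2 of the level of each gene in a cluster over its level in the other clusters of the same tissue, red for higher and blue for lower, with the value in each field. Splenic cluster 7 is blue for all 10 genes with H2-D1 at -0.67 and Tap1 at -0.99, and intestinal cluster 6 is blue for H2-K1, H2-D1 and B2m and red for Psmb8, Psmb9 and Psmb10.

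Across the 13 clusters, centred within each tissue, the log2 level of B2m went most closely with that of H2-D1 (Pearson r 0.93), and less with that of H2-K1 (0.68). Among the others, Psmb8 and Psmb10 (0.84) and Tap1 and Psmb9 (0.83), whose promoter windows overlap, were the closest pairs, while Psmb8 had no relation to B2m (-0.0048) and a negative one to H2-K1 (-0.38). These values describe 13 clusters of 2 libraries and have no test. Of 1267 genes with at least 500 UMIs in each library, the profile of Vamp8 was most like that of the summed members (r 0.93), then Lcp2 (0.93), Lbh (0.92), Cd82 (0.90) and Rtn4 (0.90). That sum was mostly made of B2m, H2-D1 and H2-K1. Between single cells at equal depth, Spearman's rho of H2-D1 with B2m was 0.21 over 1171 intestinal cells and 0.34 over 1442 splenic cells, and that of H2-K1 with H2-D1 0.22 and 0.28. H2-K1 and H2-D1 share 9.6% and 8.92% of their 3′ windows with other genes, each other included, and the part of misassigned reads in the last pair was not tested.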

How the data were processed

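Libraries were made with the 10x Genomics Chromium platform, 1 from each tissue. The deposited values were counts of UMIs per gene and barcode, which the authors had made with the Cell Ranger pipeline after trimming with Trimmomatic, on a mouse build that the study's methods give as mm10, while the submitters' notes also name mm8. Versions are not given in the sources used here. Filters modelled on the study's description were applied to the deposited counts, and they left fewer cells of each tissue than the study states: barcodes beyond 3 median absolute deviations in UMIs, genes or mitochondrial share were removed (90 of 1738 splenic, 135 of 1474 intestinal, of which 90 and 127 by mitochondrial share), followed by cells called G2/M by cyclone (183 and 61). Clusters were formed in each tissue from 127 and 69 variable genes, 20 principal components and a graph of 10 neighbours (R 4.3.3, scran 1.30.0, scuttle 1.12.0, bluster 1.12.0, Matrix 1.6.5).

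Levels were summed over cells (CPM) with Python 3.11.15 (scipy 1.17.1, numpy 2.4.6) and drawn with matplotlib 3.10.9. Genes with at least 50 UMIs over the groups compared were counted past 1.5-fold between tissues and past a log2 ratio of 0.32 between cell states. For shares and states each cell was thinned to 2000 UMIs. The libraries' depths put 3 UMIs at 0.329 CPM for splenic and 0.596 for intestinal cells. Scrublet (scanpy 1.11.5) called 4 barcodes of each library doublets, too few to have worked, so that doublets stayed in and were left out as an alternative. The scripts were tested on simulated data.

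Groups came from the tissue labels. The members and gene lists were chosen with earlier results of these data known. All 10 members were described, and from each related list the genes with the most UMIs were named, except 1 that is not reported here. The cell filters, thinning, random draws, limits and scaling were varied. Chosen after the data had been seen were the minimum of 1000 UMIs, shares without thinning, the motifs and their spacing, and the cell groups under other observations. Gene positions are those of GENCODE (GRCm38), promoters those of RefSeq (GRCm38.p6), and both were matched by gene ID or symbol.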

Additional observations from a re-analysis of the deposited data

Results flagged for a closer look

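H2-D1 and B2m differed in opposite directions between Ccl5-high cells and the rest in the 2 tissues. For H2-D1 the log2 ratio was -0.17 among intestinal and 0.19 among splenic cells, a difference of -0.362. For B2m it was -0.18 and 0.18, a difference of -0.3632. Set against the median of all genes in each tissue, the ratios were -0.05 and 0.23 for H2-D1 and -0.06 and 0.23 for B2m. With 1 library per tissue the difference between the tissues was not tested. The Ccl5-high class held 87.2% of intestinal and 12.5% of splenic cells, so the cells it was compared with were not alike.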

How the results depend on the processing

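Of the values recomputed under the alternatives, 1084 stayed within counting error of the reported ones (counts of genes within 1.5 times) and 99 did not. Nlrc5, with few UMIs, ran from -2.44 to 0.15 by Ifng among splenic cells (reported as -1.49), and by the Ccl5-high state from -2.27 to 0.86 among splenic and -0.60 to 0.99 among intestinal ones, so that its direction differed between settings. Those that moved include the counts of members past the fold. Between tissues, the count of 1 lower member (Psmb8) was 0 with cells thinned to 2000 UMIs and 0 at 2-fold. For intestinal cells with Ifng, 1 higher member was 2 when thinned to 1000 UMIs and 0 when thinned to 3000, without thinning, under 3 other random draws of the thinned cells (12, 13 and 14), and at a minimum of 1000 UMIs, and 0 lower members were 1 without CD8 cells. For splenic cells with Ifng, 0 higher members were 1 without Foxp3 cells, when thinned to 3000 and under draw 11, 2 under draws 12 and 14, and 3 when thinned to 1000 or with at least 2 Ifng UMIs. The 1 lower member (Nlrc5) was 2 under draw 12 and 0 without Foxp3 cells, when thinned to 1000 or 3000, without thinning, under draws 13 and 14 and at the minimum of 1000. For intestinal Ccl5-high cells, 1 higher member was 0 when thinned to 1000 or 3000, without thinning, under draw 14 and at the minimum of 1000, and 2 under draw 15 and at a limit of 20 Ccl5 UMIs, and 0 lower members were 1 when thinned to 1000 and under draw 15. For splenic Ccl5-high cells, 1 higher member was 0 with G2/M cells kept, under draws 12 and 15, at limits of 2 and 20 and at the minimum of 1000, 2 under draws 11 and 14, and 3 when thinned to 1000 and under draw 13, and 0 lower members were 1 without the quality filter, with G2/M cells kept, under draw 12 and at limits of 2 and 20. The cause was not tested. The median difference in shares of cells (small intestine minus spleen) was -0.156 percentage points and -10.6 without thinning. The summed level spanned 1.28-fold among intestinal clusters and 1.18-fold with 20 neighbours. No paired analysis was possible because each tissue had 1 library.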

Other observations

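The G2/M cells that had been removed were looked at after the data had been seen. Tap1 was higher in them in both tissues, at 271 CPM in 59 intestinal G2/M cells against 125 in 1171 others (log2 ratio 1.12, 0.55 to 1.65) and at 258 in 182 splenic ones against 153 in 1442 (0.76, 0.42 to 1.08). Psmb9, its head-to-head neighbour, was at 374 and 220 CPM in the spleen (0.77, 0.49 to 1.03) and at 280 and 192 in the small intestine (0.54, -0.01 to 1.06). In the small intestine, B2m (-0.24, -0.38 to -0.12), Tapbp (136 against 227 CPM, -0.74, -1.56 to -0.03) and Psmb10 (67.8 against 167, -1.30, -2.52 to -0.31, from 8 UMIs) were lower in G2/M cells. H2-K1 (1931 and 1935 CPM) and Psmb8 (632 and 647) were at like levels in splenic G2/M cells and others.

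In the small intestine, the 165 cells with a Cd8a or Cd8b1 UMI had less H2-K1 (1554 against 1955 CPM, -0.33), H2-D1 (3179 against 3745, -0.24) and B2m (4236 against 5229, -0.30) than the 1006 without, where the median of all genes was -0.14. Psmb8 was higher in them (552 against 414 CPM, 0.42, 0.18 to 0.65), and Nlrc5 was at 42.4 against 17.9 CPM (interval of the log2 ratio 0.24 to 2.17) from 14 and 36 UMIs. In the spleen, the 127 cells with a Foxp3 UMI had 3961 CPM of H2-D1 against 3697 (0.10, 0.0043 to 0.19), and for the other 9 members the interval included 0.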
